A study of Mus musculus with 9 samples.

Results

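NRF2 and 9 genes commonly taken as its targets were followed in mouse retinas after laser-induced retinal vein occlusion (RVO). The 10 genes were Nfe2l2, which encodes NRF2, and Nqo1, Gclc, Gclm, Srxn1, Txnrd1, Slc7a11, Akr1b8, Gsr and Osgin1. They were chosen by their symbols from the table of read counts per gene and are 10 of the 48587 genes listed there. All 10 passed the filter on low counts in each comparison, so none was left out.

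The RNAseq data comprised 9 samples, and each sample was a pool of 6 retinas of C57BL/6J mice aged 12 weeks. In 3 RVO samples, all large veins of an eye had been closed by laser after an intraperitoneal injection of eosin Y (200 mg/kg), a photosensitizer. In 3 control samples, the fellow eyes of these mice had received the same number and strength of laser spots away from large vessels. Both groups therefore shared eosin Y, laser injury (50 mW, spots of 50 µm) and the time point (d2). The 3 untreated samples came from other mice without laser treatment, and whether these had received eosin Y is not given in the sources used here. As a model, RVO in this study closed several veins at once in mice of a single strain and age. The paper reports for these animals that many veins re-opened over the following days, so some may have been open at d2. Total counts ranged from 12377572 to 15245869 for untreated, 18897218 to 23419497 for control and 21022997 to 28993921 for RVO samples. All samples held rod markers at high levels. Replicates were pools of different mice and differed by more than sampling noise, but n counts pools, not mice.

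NRF2 is a transcription factor that is kept low by KEAP1, an adaptor that hands it to a CUL3 ubiquitin ligase. Oxidants and electrophiles modify KEAP1, whereupon NRF2 accumulates, pairs with small MAF proteins and binds antioxidant response elements (ARE) near genes for glutathione synthesis, thioredoxin recycling and detoxification. Much of this control acts on the NRF2 protein, which was not measured here. In the retina, the pathway is known for its protective role in photoreceptors, Mueller glia and pigment epithelium under oxidative stress.

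The promoters of the genes are shown first, since an ARE is the feature through which NRF2 is known to act. RefSeq windows from 250 bases before to 50 bases after a start site (build GRCm38.p6) were given for 8 of the 10 genes, with 10 windows in all. Gclc and Gsr had no window. The ARE core was searched on both strands as TGACNNNGC or TGAGNNNGC, and the AP-1 site TGACTCA, which can overlap an ARE, was searched as well. Of the 10 windows, 6 held an ARE core, each in another gene. Of all 32851 mouse promoter windows of this length, 27.79% held either form (12.39% TGACNNNGC and 17.65% TGAGNNNGC), and 5.20% held TGACTCA. Akr1b8, Nqo1 and the other windows of Txnrd1 held no ARE core. Sequence outside these short windows was not searched, so a gene without a match here may have an ARE elsewhere. A match is a description of letters and not evidence of binding. The stretches below run 5′ to 3′ on the strand of the gene, with the ARE core in capitals (on the opposite strand it reads as its reverse complement).
Nfe2l2, chr2:75704880-75704913, minus strand, -240 to -232 from the start: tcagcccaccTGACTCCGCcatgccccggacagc
Srxn1, chr2:152105464-152105502, plus strand, -45 to -37 from the start: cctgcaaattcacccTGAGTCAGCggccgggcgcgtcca
Srxn1, chr2:152105351-152105389, plus strand, -158 to -150 from the start, core on the opposite strand: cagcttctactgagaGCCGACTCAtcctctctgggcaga
Slc7a11, chr3:50443687-50443725, minus strand, -97 to -89 from the start, core on the opposite strand: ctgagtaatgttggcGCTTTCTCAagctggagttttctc
Gclm, chr3:122245408-122245446, plus strand, -134 to -126 from the start, core on the opposite strand: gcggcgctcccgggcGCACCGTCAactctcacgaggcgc
Osgin1, chr8:119437033-119437071, plus strand, -99 to -91 from the start, core on the opposite strand: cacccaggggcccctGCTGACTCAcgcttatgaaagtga
Txnrd1, chr10:82859099-82859137, plus strand, -92 to -84 from the second listed start, core on the opposite strand: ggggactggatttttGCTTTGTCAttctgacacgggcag

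Srxn1 held 3 cores in its window, 1 of them 29 to 37 bases after the start and not shown. The core of Osgin1 and the core of Srxn1 at -45 to -37 also contained the AP-1 site. Srxn1 held another AP-1 site at -102 to -96, outside its ARE cores. The stretch of Nfe2l2 overlaps an exon of E030042O20Rik on the other strand, and none of the other 6 stretches shown overlaps an annotated exon.

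Levels are in CPM, which are counts per 1000000 of an effective total, the total count of the sample multiplied by its TMM normalization factor. Differences were tested with edgeR's quasi-likelihood test between each pair of groups over all genes, and a gene was called where the Benjamini-Hochberg adjusted p was under 0.01. Compared to untreated eyes, 8 of the 10 genes were higher in RVO eyes (Nfe2l2, Gclm, Srxn1, Txnrd1, Slc7a11, Akr1b8, Gsr and Osgin1), Gclc was lower, and Nqo1 was not called. Of all 16380 genes tested in this comparison, 52.1% were called, 27.4% as higher and 24.6% as lower. The median log2 fold change was 0.77 for the 10 genes and 0.01 for all genes. Compared to untreated eyes, 5 genes were higher in control eyes (Srxn1, Txnrd1, Slc7a11, Akr1b8 and Osgin1), 1 was lower (Gclc) and 4 were not called, beside 52.4% of all 16066 genes tested (27.2% higher and 25.2% lower). Here the median was 0.12, and 0.01 for all genes. RVO eyes exceeded control eyes for 4 genes (Nfe2l2, Gclm, Slc7a11 and Akr1b8), and 6 were not called, beside 3.34% of all 16874 genes (2.7% higher and 0.634% lower). The median was 0.71, and 0.02 for all genes. At an adjusted p under 0.05, 9 of the 10 genes were above control eyes in RVO, beside 17.5% of all genes. The samples of RVO and untreated eyes did not overlap for the same 8 higher and 1 lower gene (37.8% and 35.5% of all genes), those of control and untreated eyes for 5 higher and 2 lower genes (36.8% and 33% of all genes), and those of RVO and control eyes for 9 higher genes (27.3% of all genes). Of the calls against untreated eyes over all genes, 52.7% were higher in RVO and 51.9% in control eyes, and these shares were 68.5% and 70.4% with library size as the only scaling. RVO and control pools came from fellow eyes, but the labels do not say which pools shared mice, so these tests are unpaired. With the replicate number as a block, 0 of the 10 genes and 0 of all genes were called between RVO and control eyes. The replicate numbers do not show a pairing, however. The comparisons of the laser-treated groups with untreated eyes share the untreated samples.

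The calls between RVO and control eyes turned on single samples. Without the second RVO sample, 9 of the 10 genes were called (6257 of all genes). Without either of the other RVO samples or any one of the 3 control samples, 0 were called (0 to 29 of all genes). In these fits, 8 to 9 of the 10 genes had an unadjusted p under 0.05, beside 6100 to 6916 of all genes. The fold changes between RVO and control eyes kept their direction for the 9 genes other than Nqo1.

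**Figure D1:**
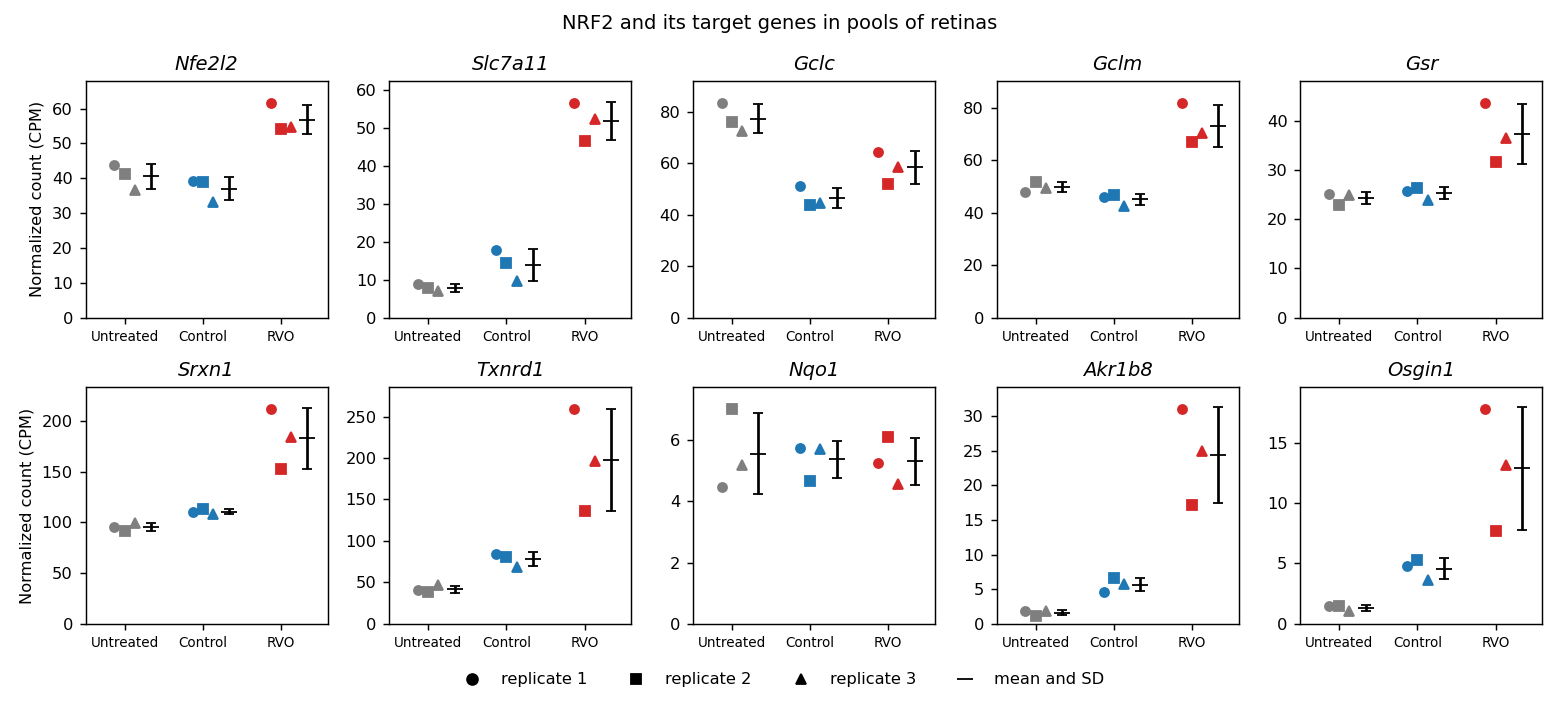
CPM (vertical axes, from 0) of Nfe2l2 and its target genes in the 3 untreated, 3 control and 3 RVO samples; each symbol is a pool of 6 retinas, and the bar with whiskers is the mean and SD. In 9 of the 10 panels the RVO samples lie above the control samples, and Nqo1 shows overlapping groups between 4.47 and 7.04 CPM.

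Nfe2l2 (GRCm38 chr2:75675513-75704641, minus strand, a protein-coding gene like all 10) is the regulator itself. It had 61.7, 54.1 and 54.6 CPM in the RVO samples, 39.1, 38.9 and 33.1 CPM in the control samples and 43.8, 41.1 and 36.5 CPM in the untreated samples. Every RVO sample was above all others, while control and untreated samples overlapped. RVO eyes were 1.39-fold above untreated eyes (log2 fold change 0.48, SE 0.10, adjusted p = 0.00279), a call that was lost without the second or the third untreated sample (adjusted p = 0.0145 and 0.0132). RVO eyes were 1.53-fold above control eyes (log2 fold change 0.62, SE 0.10, adjusted p = 0.00977). Control and untreated eyes differed by -0.15 on the log2 scale (95% CI -0.34 to 0.05, adjusted p = 0.168), a value that was above 0 with scaling by library size only and with GC content and length trends removed. As these are whole retinas, more RNA per cell and a changed make-up of cells cannot be told apart, here and below.

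Cystine uptake and the synthesis of glutathione are represented by Slc7a11, Gclc and Gclm. Slc7a11 (chr3:49892526-50443614, minus strand) encodes xCT, the subunit of the cystine/glutamate exchanger that carries the substrates. Its level was 56.7, 46.5 and 52.2 CPM in RVO, 17.9, 14.4 and 9.50 CPM in control and 8.77, 7.72 and 6.87 CPM in untreated samples. The 3 groups did not overlap, and the lowest control sample lay close to the highest untreated one. Slc7a11 rose 6.63-fold in RVO eyes over untreated eyes (log2 fold change 2.73, SE 0.13, adjusted p = 3.37e-06), a log2 fold change of 3.33 with GC content and length trends removed. In control eyes it was 1.77-fold above untreated eyes (log2 fold change 0.82, SE 0.20, adjusted p = 0.00294), which was not called without the second or the third untreated sample (adjusted p = 0.017 and 0.0207). RVO eyes exceeded control eyes 3.72-fold (log2 fold change 1.89, SE 0.21, adjusted p = 0.00672). Its partner chain Slc3a2, from the list of other glutathione genes, had means of 319 ± 48.4, 199 ± 14.6 and 187 ± 16.0 CPM in the RVO, control and untreated groups (SD, n = 3). Slc3a2 was called in the comparison of RVO with untreated eyes (log2 fold change 0.76, adjusted p = 0.000752). It was not called between RVO and control eyes (0.68, adjusted p = 0.0116) or between control and untreated eyes (0.07, adjusted p = 0.377).

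Gclc (chr9:77754535-77794485, plus strand) encodes the catalytic subunit of glutamate-cysteine ligase, the rate-limiting enzyme of glutathione synthesis. It went the other way, with 64.6, 52.0 and 58.7 CPM in RVO, 51.2, 43.9 and 44.7 CPM in control and 83.7, 76.2 and 72.6 CPM in untreated samples. The untreated samples were above all laser-treated samples. Gclc fell by 0.75 on the log2 scale in control eyes (SE 0.07, adjusted p = 2.23e-06), to 0.594 of the untreated level. In RVO eyes it fell by 0.42 (SE 0.10, adjusted p = 0.0069), but this call was lost without the third RVO sample or any one untreated sample (adjusted p = 0.0127 to 0.0298) and with scaling by library size only (log2 fold change -0.20, adjusted p = 0.119). RVO and control eyes differed by 0.33 (95% CI 0.09 to 0.56, adjusted p = 0.0436), with no overlap of their samples.

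Gclm (chr3:122245557-122270732, plus strand) encodes the modifier subunit of the same ligase, which makes the catalytic subunit more efficient. Its samples had 81.9, 66.7 and 70.3 CPM in RVO, 46.0, 46.6 and 42.6 CPM in control and 48.0, 51.6 and 49.3 CPM in untreated eyes. The RVO samples stood apart and the control samples were slightly below the untreated ones. RVO eyes exceeded untreated eyes 1.46-fold in Gclm (log2 fold change 0.55, SE 0.10, adjusted p = 0.00129) and control eyes 1.62-fold (log2 fold change 0.69, SE 0.09, adjusted p = 0.00846). Control and untreated eyes differed by -0.16 (95% CI -0.30 to -0.02, adjusted p = 0.04998), which was above 0 with library size scaling and with GC content and length trends removed. Its exons overlap Gm6061 on the same strand and Gm17494 on the other strand, and 291 of 6349 windows of 50 bases (4.58%) occur in transcripts of other genes. The counts of Gclm are thus less certain than those of genes without shared sequence. Slc7a11 also shared such windows with other genes (205 of 13912, 1.47%).

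The ratio of RNA counts for both ligase subunits does not depend on how samples are scaled, since it is taken within a sample. It is compared between groups only and is not the balance of the subunits. The exons span 6291 bases in Gclm and 3766 in Gclc, shared windows of Gclm enter the ratio, and protein was not measured. The ratio of Gclm to Gclc counts was 1.27, 1.28 and 1.20 in RVO, 0.898, 1.06 and 0.952 in control and 0.573, 0.678 and 0.679 in untreated samples. The groups did not overlap, with untreated samples lowest and RVO samples highest. Means were 1.25 ± 0.0455, 0.971 ± 0.0840 and 0.643 ± 0.0609 (SD, n = 3), and each pair of groups had an exact two-sided permutation p = 0.1, the smallest that 3 against 3 samples allow. The mean ratio of RVO eyes was 1.94-fold and that of control eyes 1.51-fold the mean of untreated eyes.

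**Figure D2:**
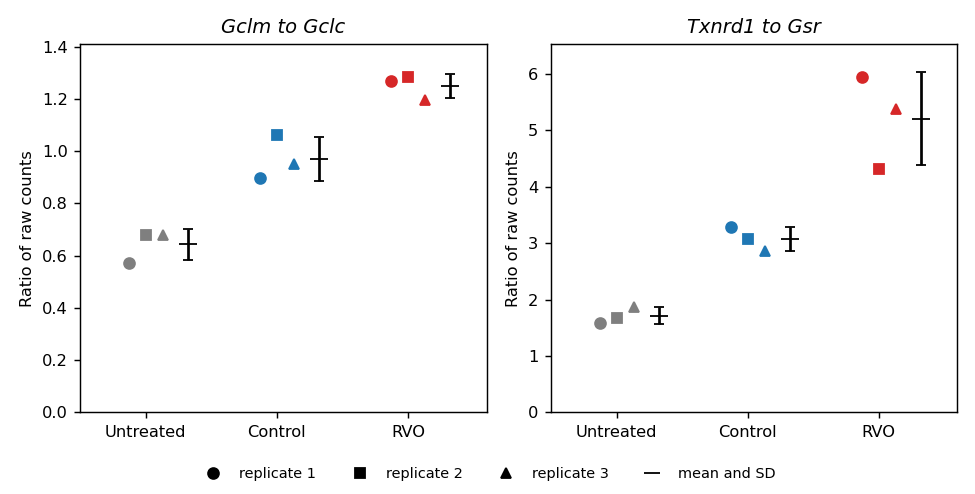
Ratio of raw counts within each sample (vertical axes, from 0) of Gclm to Gclc (left) and Txnrd1 to Gsr (right), with the mean and SD beside the 3 samples of each group. Both ratios are lowest in untreated and highest in RVO samples without overlap of groups, with means of 0.643, 0.971 and 1.25 on the left and 1.72, 3.07 and 5.21 on the right.

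Gsr, Txnrd1 and Srxn1 keep thiols reduced. Gsr (chr8:33652523-33698163, plus strand) encodes glutathione reductase, which regenerates glutathione with NADPH. It had 43.7, 31.7 and 36.6 CPM in RVO, 25.6, 26.3 and 23.9 CPM in control and 25.2, 22.9 and 24.9 CPM in untreated samples. RVO samples were above all others, and control and untreated samples overlapped. Gsr exceeded its untreated level 1.52-fold in RVO eyes (log2 fold change 0.61, SE 0.13, adjusted p = 0.00319), and this was lost without the third RVO sample or any one untreated sample (adjusted p = 0.0109 to 0.0197). RVO and control eyes differed by 0.56 (95% CI 0.27 to 0.85, adjusted p = 0.0163). The difference of control from untreated eyes was 0.04 (95% CI -0.14 to 0.21, adjusted p = 0.72).

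Txnrd1 (chr10:82833951-82897712, plus strand), the cytosolic thioredoxin reductase, varied more. Its level was 260, 137 and 197 CPM in RVO, 84.4, 81.0 and 68.2 CPM in control and 40.2, 38.5 and 46.6 CPM in untreated samples. No groups overlapped, and the RVO samples spanned a 1.90-fold range. Txnrd1 rose 4.70-fold in RVO (log2 fold change 2.23, SE 0.22, adjusted p = 7.56e-05) and 1.84-fold in control eyes (log2 fold change 0.88, SE 0.09, adjusted p = 4.08e-06) over untreated eyes. RVO and control eyes differed by 1.34 (95% CI 0.83 to 1.86, adjusted p = 0.0101), just outside the threshold. The ratio of Txnrd1 to Gsr counts was 5.21 ± 0.827 in RVO, 3.07 ± 0.220 in control and 1.72 ± 0.144 in untreated eyes (SD, n = 3), without overlap (exact two-sided permutation p = 0.1 for each pair, the smallest possible).

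Srxn1 (chr2:152105516-152111376, plus strand) encodes sulfiredoxin, which repairs over-oxidized peroxiredoxins. It had 212, 153 and 184 CPM in RVO, 111, 113 and 108 CPM in control and 95.1, 91.2 and 98.9 CPM in untreated samples. The 3 groups did not overlap. Srxn1 exceeded its untreated level 1.91-fold in RVO eyes (log2 fold change 0.93, SE 0.12, adjusted p = 0.00025), a value of 0.40 (adjusted p = 0.0121) with GC content and length trends removed. In control eyes the difference from untreated eyes was small (log2 fold change 0.20, SE 0.05, adjusted p = 0.00608), and with GC content and length trends removed it was called in the other direction (-0.23, adjusted p = 0.00222). It was also lost without the first or second control sample or the first or second untreated sample (adjusted p = 0.0186 to 0.052), with DESeq2 (adjusted p = 0.0126) and with all 9 samples in 1 fit (adjusted p = 0.163). In all, it was called as higher in 6 of 14 alternatives and as lower in 1. RVO and control eyes differed by 0.73 (95% CI 0.45 to 1.00, adjusted p = 0.0101).

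Nqo1, Akr1b8 and Osgin1 stand for detoxification and further targets. Nqo1 (chr8:107388225-107403206, minus strand), a quinone reductase that often serves as a reporter of NRF2 activity, was not called in any comparison. It had 5.26, 6.10 and 4.57 CPM in RVO, 5.75, 4.67 and 5.70 CPM in control and 4.47, 7.04 and 5.19 CPM in untreated samples. All groups overlapped. The log2 fold change was -0.08 for RVO against untreated eyes (95% CI -0.57 to 0.40, adjusted p = 0.743), -0.07 for control against untreated eyes (95% CI -0.45 to 0.30, adjusted p = 0.728) and -0.02 for RVO against control eyes (95% CI -0.41 to 0.36, adjusted p = 0.931). Nqo1 rested on 50 to 163 counts per sample, and its intervals do not reach the log2 fold changes of 0.88 or more seen for Txnrd1, Akr1b8 and Osgin1 in laser-treated against untreated eyes.

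Akr1b8 (chr6:34354119-34368463, plus strand), an aldo-keto reductase that reduces reactive aldehydes, showed the largest fold change of the 10 genes. Its level was 31.1, 17.2 and 25.02 CPM in RVO, 4.65, 6.55 and 5.74 CPM in control and 1.88, 1.15 and 1.82 CPM in untreated samples, the last from 21, 15 and 26 counts. The groups did not overlap. Akr1b8 rose 15.04-fold in RVO (log2 fold change 3.91, SE 0.29, adjusted p = 2.39e-05) and 3.45-fold in control eyes (log2 fold change 1.78, SE 0.22, adjusted p = 1.76e-05) over untreated eyes. The level of RVO eyes was 4.33-fold that of control eyes (log2 fold change 2.12, SE 0.24, adjusted p = 0.00672). Of its 1448 windows of 50 bases, 42 (2.90%) also occur in transcripts of Akr1b10, Akr1b7 or the pseudogenes Gm15806 and Gm5649. Akr1b10 was not called in any comparison (log2 fold changes 0.05 for RVO and -0.05 for control against untreated eyes and 0.10 for RVO against control eyes, adjusted p = 0.816, 0.777 and 0.699) and Akr1b7 did not pass the filter on low counts.

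Osgin1 (chr8:119434124-119446256, plus strand) encodes an oxidative stress-induced growth inhibitor. It had 17.8, 7.64 and 13.1 CPM in RVO, 4.74, 5.28 and 3.59 CPM in control and 1.43, 1.45 and 1.05 CPM in untreated samples, the last from 16, 19 and 15 counts. The groups did not overlap, and RVO samples spanned a 2.33-fold range. Osgin1 rose 9.80-fold in RVO (log2 fold change 3.29, SE 0.36, adjusted p = 0.000131) and 3.42-fold in control eyes (log2 fold change 1.77, SE 0.23, adjusted p = 2.64e-05) over untreated eyes. With GC content and length trends removed, these log2 fold changes were 2.59 and 1.12 (adjusted p = 0.000658 and 0.00304). RVO and control eyes differed by 1.51 (95% CI 0.77 to 2.24, adjusted p = 0.0146).

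**Figure D3:**
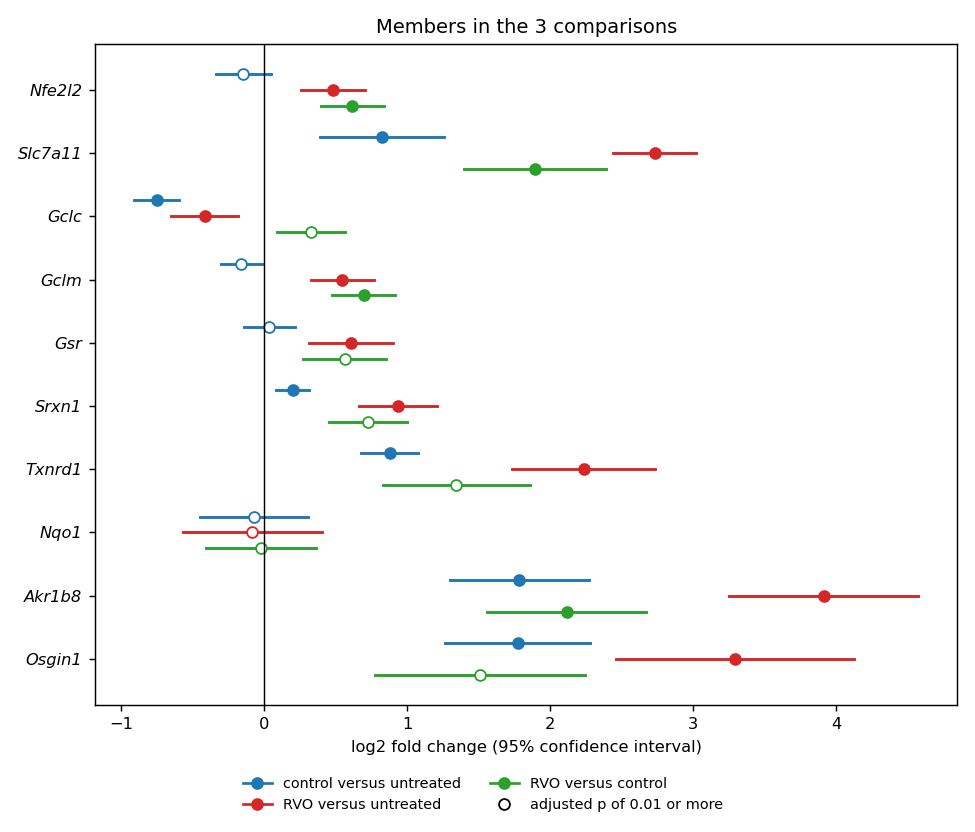
log2 fold change (horizontal axis) with its 95% confidence interval for each of the 10 genes in control versus untreated (blue), RVO versus untreated (red) and RVO versus control (green); filled points have an adjusted p under 0.01. Akr1b8 (3.91), Osgin1 (3.29), Slc7a11 (2.73) and Txnrd1 (2.23) lie farthest to the right in RVO versus untreated, Gclc lies left of 0 in both comparisons with untreated eyes, and Nqo1 stays around 0.

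The order of the genes by level was compared per length of their exons, in CPM per kb. In untreated eyes it was Srxn1 (33.7), Gclc (20.6), Nfe2l2 (10.7), Gsr (8.84), Gclm (7.89), Txnrd1 (5.90), Nqo1 (3.58), Akr1b8 (1.08), Slc7a11 (0.559) and Osgin1 (0.491), and only the last pair overlapped. In control eyes the order was Srxn1 (39.2), Gclc (12.4), Txnrd1 (10.99), Nfe2l2 (9.76), Gsr (9.19), Gclm (7.16), Akr1b8 (3.77), Nqo1 (3.46), Osgin1 (1.70) and Slc7a11 (1.00). Here Gclc, Txnrd1, Nfe2l2 and Akr1b8 each overlapped the next gene. In RVO eyes it was Srxn1 (64.8), Txnrd1 (27.9), Akr1b8 (16.3), Gclc (15.5), Nfe2l2 (14.97), Gsr (13.6), Gclm (11.6), Osgin1 (4.81), Slc7a11 (3.72) and Nqo1 (3.42), and only Srxn1 and Gclm were separate from the gene that followed. Srxn1 led in each group, Gclc was the second gene in untreated and control eyes, and Nqo1 was last in RVO eyes. Txnrd1 moved from the sixth place in untreated eyes to the second in RVO eyes.

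The RVO samples differed among themselves in a like manner for most genes. The first RVO sample was the highest and the second the lowest for 9 of the 10 genes, all but Nqo1. Among the 4492 genes that were higher in RVO than in untreated eyes, the second RVO sample was the lowest for 65.6% and the first the highest for 49.4%, so part of this order is shared by many genes. The highest RVO sample exceeded the lowest 1.14-fold for Nfe2l2 and 1.22-fold for Slc7a11, but 1.81-fold for Akr1b8. Over the 9 samples, Pearson's r of log2(CPM + 0.5) was between 0.73 and 0.98 for the 28 pairs of genes without Nqo1 and Gclc. These values mostly reflect the groups. After subtraction of group means, r was 0.97 for Srxn1 with Txnrd1 and with Gsr, but 0.06 for Slc7a11 with Akr1b8. The samples share depth and composition in all genes, so the values are a description. Of 11990 genes with a mean of at least 5 CPM, those most like Nfe2l2 over the 9 samples were Tbc1d30 (r = 0.981), Slc31a1 (r = 0.980) and Pitrm1 (r = 0.976). Those most like Akr1b8 were Sgpl1 (r = 0.997), Nr4a1 (r = 0.995) and Cln8 (r = 0.995).

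Marker genes of several cell types also differed between the samples, but not all followed the order of the groups seen for most of the 10 genes. The summed level of 10 neutrophil markers was 46.1 to 103 CPM in RVO, 8.32 to 24.4 CPM in control and 0.535 to 1.19 CPM in untreated samples. Of these markers, 4 passed the filter and all 4 were higher in both laser-treated groups than in untreated eyes, whereas Elane had at most 3 counts in every sample. For 10 monocyte and macrophage markers the sum was 53.9 to 66.3, 25.05 to 34.6 and 8.03 to 11.01 CPM in the same order, with 7 of 9 tested genes higher in RVO and 6 of 8 higher in control eyes than in untreated eyes. Rod markers summed to 86862 to 88557 CPM in untreated, 56671 to 69051 CPM in control and 46847 to 50873 CPM in RVO samples (7 and 9 of 9 genes lower than in untreated eyes). Mueller cell markers summed to 4856 to 5110, 3218 to 3887 and 1965 to 2897 CPM in this order (4 of 8 lower in either group, and 1 higher in control eyes), and microglia markers to 94.3 to 145, 49.9 to 58.4 and 31.3 to 52.1 CPM (4 of 6 lower in either group). Lens markers reached 3908 CPM in the second RVO sample and 1626 CPM in the first control sample, with 96.2 to 386 CPM and 122 to 292 CPM in the other laser-treated samples and at most 13.5 CPM in untreated samples. Lens genes were called as higher for 5 of 7 tested in RVO and 8 of 8 in control against untreated eyes, and Lim2 had at most 3 counts everywhere. Erythroid markers were highest in the first RVO sample (199 CPM, against 50.2 and 79.9 CPM in the others, 28.9 to 31.4 CPM in control and 14.4 to 14.8 CPM in untreated samples), with 2 of 5 tested genes higher in either group. Pigment epithelium markers showed 406 to 766, 493 to 570 and 541 to 600 CPM, and endothelium markers 154 to 265, 303 to 337 and 155 to 160 CPM, in RVO, control and untreated samples (1 of 9 and 3 of 7 genes higher in RVO, and 1 of 9 and 5 of 7 higher in control against untreated eyes). Of the pigment epithelium markers, 1 was lower in RVO and 3 in control eyes. The counts of markers stand beside 27.4% of all genes called as higher and 24.6% as lower in RVO eyes. In control eyes these shares were 27.2% and 25.2%, again against untreated eyes, and several of the counts lie near them. The part of the marked cell types in the levels of the NRF2 genes was not tested. Without the second RVO sample, 9 of the 10 genes and 10491 of all genes were called between RVO and untreated eyes (9 and 8529 with it).

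The other genes of the pathway were read from lists, described by counts and medians. Their counts against untreated eyes stand beside 27.4% of all genes called as higher and 24.6% as lower in RVO eyes, and 27.2% and 25.2% in control eyes. Between RVO and control eyes the shares were 2.7% and 0.634%. In that comparison, 7940 of all 16874 genes tested had an unadjusted p under 0.05 by edgeR, and DESeq2 called 4038 genes. Of 9 genes for the control of NRF2, 7 were called as higher and 1 as lower in RVO eyes (median log2 fold change 0.84) and 6 as higher and 1 as lower in control eyes (median 0.47), both against untreated eyes, and 0 were called between RVO and control eyes by edgeR (6 had an unadjusted p under 0.05, and DESeq2 called 4). The small MAF partner Mafg rose from 58.7 ± 3.17 CPM in untreated to 97.6 ± 7.56 CPM in control and 126 ± 1.99 CPM in RVO eyes (SD, n = 3; log2 fold changes 0.71 and 1.09, adjusted p = 1.6e-06 and 1.32e-05). Maff, another partner, had 1.36 ± 0.272, 4.87 ± 0.845 and 19.2 ± 7.73 CPM (log2 fold changes 1.82 and 3.81, adjusted p = 1.32e-05 and 9.56e-05). The inhibitor Keap1 was higher in both groups as well (log2 fold changes 0.64 and 0.84, adjusted p = 1.08e-05 and 0.000102), as was Sqstm1, the p62 protein that removes KEAP1 (0.47 and 1.17, adjusted p = 1.08e-05 and 7.27e-05). Mafk, a small MAF as well, was higher in both (0.77 and 1.62, adjusted p = 0.000709 and 0.000186). Cul3 was lower in both (-0.73 and -0.64, adjusted p = 1.17e-06 and 0.000356).

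Of 14 further genes of glutathione use and transport that were tested, 10 were called as higher and 1 as lower in RVO eyes (median 0.76) and 7 as higher and 1 as lower in control eyes (median 0.39), again against untreated eyes. Gpx3, the secreted glutathione peroxidase, had means of 247 ± 12.5, 68.7 ± 15.1 and 54.9 ± 10.6 CPM in the RVO, control and untreated groups (SD, n = 3). RVO eyes were above untreated (log2 fold change 2.16, adjusted p = 9.99e-06) and control eyes (1.85, adjusted p = 0.00455). Gsta4, a transferase for lipid aldehydes, was also above its control level in RVO eyes (0.66, adjusted p = 0.00887), and edgeR called these 2 of the 14 genes in that comparison (9 had an unadjusted p under 0.05, and DESeq2 called 6). Gstp1 was higher in control (1.16, adjusted p = 2.58e-07) and RVO eyes (1.04, adjusted p = 5e-05) than in untreated eyes, and RVO and control eyes differed by -0.13 (95% CI -0.28 to 0.03, adjusted p = 0.175). Ggt7 was higher in control (0.96, adjusted p = 3.07e-07) and RVO eyes (0.68, adjusted p = 0.000347), as was Mgst1, a microsomal glutathione transferase (0.77 and 1.46, adjusted p = 0.00023 and 9.8e-05). Gpx4, which reduces lipid peroxides, fell by 0.63 in control eyes (adjusted p = 8.95e-06) and differed by -0.33 in RVO eyes (adjusted p = 0.0103).

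The thioredoxin list held thioredoxins and peroxiredoxins, and also Txnrd2, Txnip and Sesn2. All 11 genes of this list were higher in RVO (median 1.00) and 10 of 11 in control eyes (median 0.62) than in untreated eyes. Thioredoxin itself, Txn1, had 25.8 ± 1.86 CPM in untreated, 46.6 ± 4.495 CPM in control and 72.7 ± 10.5 CPM in RVO eyes (SD, n = 3; log2 fold changes 0.84 and 1.49, adjusted p = 5.43e-06 and 3.77e-05). The peroxiredoxins Prdx2 and Prdx6 were higher in both laser-treated groups (Prdx2 0.92 in control and 0.97 in RVO eyes, Prdx6 0.86 and 0.91). Between RVO and control eyes the interval was -0.14 to 0.21 for Prdx2 and -0.09 to 0.17 for Prdx6 (95% CI on the log2 scale). Prdx4, the peroxiredoxin of the endoplasmic reticulum, was higher in both as well (1.02 and 1.92, adjusted p = 5.42e-06 and 5.38e-05). Prdx1 (0.57, adjusted p = 0.00989) and Txnip, which binds thioredoxin (0.74, adjusted p = 0.00944), were called as higher in RVO than in control eyes by edgeR (8 of the 11 genes had an unadjusted p under 0.05, and DESeq2 called 6).

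Of 6 genes that supply NADPH, 2 were higher and 1 lower in RVO (median -0.15) and 3 higher and 2 lower in control eyes (median 0.01) than in untreated eyes. Pgd and Taldo1 of the pentose phosphate pathway were higher in both groups (Pgd 1.00 in RVO and 0.66 in control eyes, adjusted p = 2.97e-05 and 1.21e-06, and Taldo1 1.14 and 0.63, adjusted p = 3.38e-05 and 3.89e-06). Me1, malic enzyme, was lower in both (-0.60 and -0.34, adjusted p = 0.000182 and 5.87e-05). G6pdx, which opens the pentose phosphate pathway, fell by 0.28 in control eyes (adjusted p = 0.000445). Tkt, transketolase, rose by 0.19 in control eyes (adjusted p = 0.00664). Between RVO and control eyes 0 of these genes were called by edgeR (4 had an unadjusted p under 0.05, and DESeq2 called 3).

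Of 13 other detoxification genes tested, 7 were higher and 1 lower in RVO (median 0.73) and 4 higher and 1 lower in control eyes (median 0.33), and 0 were called between RVO and control eyes by edgeR (7 had an unadjusted p under 0.05, and DESeq2 called 4). Hmox1, heme oxygenase, had means of 573 ± 189, 67.5 ± 45.1 and 5.43 ± 0.893 CPM in the RVO, control and untreated groups (SD, n = 3). Its log2 fold changes over untreated eyes were 6.70 (adjusted p = 2.52e-06) and 3.60 (adjusted p = 2.97e-05), above those of all 10 genes. Abcc1, an exporter of glutathione conjugates, was higher in RVO (1.40, adjusted p = 4.28e-05) and control eyes (0.72, adjusted p = 1.1e-06). Akr1a1, an aldehyde reductase (0.65 and 0.47, adjusted p = 7.88e-05 and 1.64e-05), and Blvrb, biliverdin reductase B (1.67 and 1.03, adjusted p = 8.02e-05 and 0.000101), were higher in RVO and control eyes too. Ugdh was lower in control eyes (-0.46, adjusted p = 5.12e-05). Of 4 genes against superoxide and peroxide, Sod3, the extracellular superoxide dismutase, was called as higher in all 3 comparisons (2.43 in RVO and 0.85 in control over untreated eyes, and 1.57 in RVO over control eyes, adjusted p = 2.17e-05, 0.000582 and 0.00817). Between RVO and control eyes, 3 of these 4 genes had an unadjusted p under 0.05, and DESeq2 called 1. Sod1 was above its untreated level in RVO eyes (0.34, adjusted p = 0.00956), and Sod2 and Cat were not called in any comparison.

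**Figure D4:**
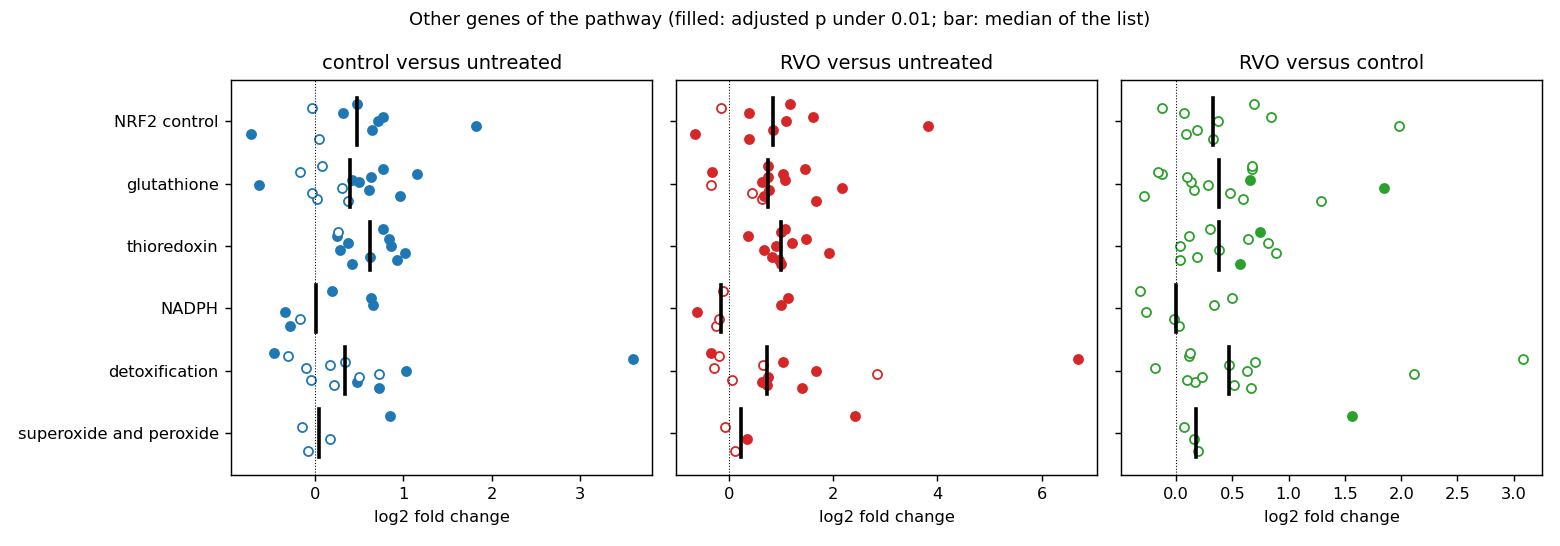
log2 fold changes (horizontal axes) of the other tested genes of 6 pathway lists in control versus untreated, RVO versus untreated and RVO versus control; each point is a gene, filled where the adjusted p is under 0.01, and the vertical bar is the median of its list. All 11 genes of the thioredoxin list are filled and right of 0 in RVO versus untreated, the NADPH list lies on both sides of 0, and in RVO versus control 5 points are filled.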

How the data were processed

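Poly-A RNA of 9 pools of retinas was sequenced with a strand-specific kit as single reads. Per the labels and the methods, the authors mapped reads with STAR 2.5.2b to the mouse genome with Gencode vM11 (GRCm38), counted them per gene with featureCounts (Subread 1.5.1) and deposited these counts, which are not normalized. Whether counting used the strand, and how reads of several genes were treated, is not given in the sources used here. Counts of genes with near copies or overlaps are thus uncertain.

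Tests used edgeR 4.0.16 in R 4.3.3 (filterByExpr, TMM factors, quasi-likelihood test). Each pair of groups was fitted on its own, with the Benjamini-Hochberg adjustment over all genes tested. The threshold of 0.01 is that of the paper's tables. TMM factors over all samples were 0.903 to 0.935 for untreated, 1.01 to 1.04 for control and 1.04 to 1.07 for RVO samples. Fold changes are unshrunken. Positions and exon lengths are from GENCODE vM21 (GRCm38), and promoters are from RefSeq. Ratios of counts were tested by exact permutation of samples. The edgeR procedure was tested on simulated counts with changes balanced in direction and without outlying samples or GC and length trends. That test therefore does not cover such features of the real samples.

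The members, lists and tests were chosen with earlier results of these data known. All 10 members are named. Genes of the other lists were drawn from the 5 or fewer called genes with the smallest adjusted p in each list and comparison, of which not all are named, and Slc3a2, Akr1b10, Akr1b7, Gclm's overlapping genes, Sod2 and Cat were added for their relation to a member or to complete a list. Alternatives were other scaling and filters, DESeq2 1.42.0, the replicate number as a block, 1 fit over the 9 samples, a threshold of 0.05, each sample left out and, chosen after seeing the data, removal of GC content and length trends. Pools are the replicates, and p-values cover the spread between them. Untreated samples were the shallowest, which limits the precision of Akr1b8 and Osgin1. Protein, qPCR and time course data were not analysed here, and the value of 1 marker gene is not reported here.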

Additional observations from a re-analysis of the deposited data

Results flagged for a closer look

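For 2 of the 10 genes, the value against untreated eyes was above 0 in RVO and below 0 in control eyes. For both, the difference between the laser-treated groups passed the test (edgeR's quasi-likelihood test). How often this pattern occurs across the whole data set was not counted, so it cannot be read as a trait of these 2 genes. In control against untreated eyes, the median log2 fold change over all genes was 0.01, so values below 0 were common there. For Nfe2l2, the difference of RVO from control eyes was 0.62 on the log2 scale (adjusted p = 0.00977), from 0.48 in RVO and -0.15 in control eyes against untreated eyes. For Gclm, it was 0.69 (adjusted p = 0.00846), from 0.55 and -0.16. The values of control eyes were not called, and both were above 0 with scaling by library size only and with GC content and length trends removed. Both calls between RVO and control eyes were lost without the first or the third RVO sample or any one control sample (adjusted p of up to 0.0566 and 0.0565). That of Nfe2l2 was also lost with DESeq2 size factors (adjusted p = 0.0106) and with a filter of at least 1 CPM in 3 samples (adjusted p = 0.0102). With the replicate number as a block, neither gene was called (adjusted p = 0.0314 for each). Groups of 3 samples were too small for the search for single outlying samples.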

How the results depend on the processing

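Between RVO and control eyes, 4 of the 10 NRF2 genes and 563 of all genes were called. These counts were 3 and 400 with DESeq2 size factors, 3 and 380 with at least 1 CPM in 3 samples (Nfe2l2 lost in both), 6 and 892 with library size only, 8 and 3309 without a filter, 8 and 4038 with DESeq2, 8 and 3853 with all 9 samples in a single fit, and 9 and 5836 at a threshold of 0.05. They were 0 to 9 and 0 to 6257 with a sample left out. The share of calls that were higher was 81.0%, but 47.4% without a filter, 46.5% with DESeq2 and 47.5% with all 9 samples. With the replicate number as a block, 0 NRF2 genes and 0 of all genes were called (7227 genes had an unadjusted p under 0.05). The numbers do not show a pairing, as deviations of RVO and control samples of the same number correlated by -0.16, -0.16 and 0.08, and none of the RVO samples correlated best with the control sample of its own number. Against untreated eyes, the block left 9 NRF2 genes called in RVO and 5 instead of 6 in control eyes (without Srxn1, adjusted p = 0.0112).

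Against untreated eyes, leaving out a sample gave 6 to 9 NRF2 genes in RVO (6008 to 10491 of all genes) and 4 to 6 in control eyes (6915 to 8115 of all genes). With library size only, the median over all genes was 0.22 in RVO and 0.19 in control eyes (log2 fold change), and the share of calls that were higher went from 52.7% to 68.5% in RVO and from 51.9% to 70.4% in control eyes. The NRF2 genes that changed sign had not been called, except for Srxn1 in control eyes. With library size only, Nqo1 was at 0.13 (RVO against untreated), 0.10 (control against untreated) and 0.028 (RVO against control), and in control against untreated eyes Nfe2l2 was at 0.029 and Gclm at 0.015. With GC content and length trends removed, Nqo1 was at 0.12 and 0.13 against untreated eyes, and in control eyes Nfe2l2 was at 0.15, Gclm at 0.061 and Srxn1 at -0.23. With a sample left out, Nqo1 ranged from -0.22 to 0.12 in RVO and from -0.21 to 0.12 in control against untreated eyes and from -0.15 to 0.062 between both, and Gsr from -0.018 to 0.080 in control against untreated eyes. The cause was not tested.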
